A study of Capra hircus with 9 samples.

Results

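The transcripts described here encode enzymes that break down stored and long-chain fat: the carnitine acyltransferases CPT1, CPT2 and CROT, the acyl-CoA dehydrogenases ACADVL and ACADL, the alpha subunit of the mitochondrial trifunctional protein (HADHA) and hormone-sensitive lipase (LIPE). They were found by the protein description that the authors gave to each assembled transcript, and 10 of the 9131 transcripts with values carried 1 of these 7 descriptions. The 10 transcripts belonged to 9 assembled components, the groups of sequences that an assembler keeps together. The description list of 51299 transcripts held 15 transcripts with these descriptions, and the other 5, all described as CPT1, were not analysed here. All 9 gene symbols that the descriptions can stand for were in the RefSeq gene table of the goat (ARS1.2), with CPT1 counted as CPT1A, CPT1B and CPT1C because its description does not say which member is meant.

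Messenger RNA was taken from the mammary gland of goats of the Xinong Saanen dairy breed, with 3 samples for each of 3 stages: lactation at day 100 after kidding, dry-off at day 310, and a stage of neither lactation nor pregnancy, called non-lactation below. The labels name no treatment or genotype and give age only as the stage, and they leave unsaid whether the 3 samples of each stage are 3 goats, so the deposited p-values may reflect technical spread alone. Every level is the authors' mean RPKM of a stage (reads scaled to transcript length and to library size), with no value or error per sample, and the depth per sample is unknown. The study named fatty acid metabolism of the lactating gland as its subject.

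Long-chain fatty acids enter mitochondria as carnitine esters, made by CPT1 on the outer membrane and returned to acyl-CoA by CPT2 on the inner membrane. Acyl-CoA dehydrogenases then open each round of beta-oxidation, and the trifunctional protein completes the round for long chains. Hormone-sensitive lipase releases fatty acids from stored lipid and is best known from adipocytes. The lactating gland is known mainly for the opposite flow, the synthesis and export of milk fat.

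Means of RPKM are shares of a library, and milk transcripts took a large share of it in lactation. The 3 transcripts of the milk proteins LALBA and GLYCAM1 made up 49.9% of the table's summed mean RPKM in lactation, but 0.523% in dry-off and 21.5% of it in the non-lactation stage. The median transcript of the whole table was 4.32-fold higher in dry-off than in lactation (log2 2.11) and 2.66-fold higher in non-lactation (log2 1.41). Without the 3 milk transcripts, the summed means differed 3.08-fold and 1.86-fold, and dividing by them is called rescaling below. For each enzyme named at the start, at least the most abundant transcript is therefore given as deposited and after rescaling. Further genes are given as deposited, and after rescaling only where stated.

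In dry-off, transcripts of carnitine transfer, HADHA, 1 ACADL transcript and LIPE were higher than in lactation. Of the 10 transcripts, 7 rose, 0 fell and 3 did not pass, at an FDR (false discovery rate) below 0.05 in the authors' deposited table. This 70.0% compares with 65.9% of all tested transcripts called higher in dry-off by the authors' deposited table, so the count is near the background; 0.690% were called lower. At an unadjusted p below 0.05, 9 of the 10 were higher, against 86.9% of all transcripts, by the authors' deposited table. The size of the ratios lay higher: the median of the 10 transcripts was log2 3.04, against 2.11 for the table, and 7 of the 10 lay above that table median. With 1 RPKM added to each mean, which shrinks the ratios of low transcripts, these medians were log2 1.81 and 1.47, a gap of 0.34 in place of 0.93. After rescaling with nothing added, the members' median was log2 1.42. The members ranged from 2.50-fold for LIPE to 34.2-fold for CROT.

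**Figure D1:**
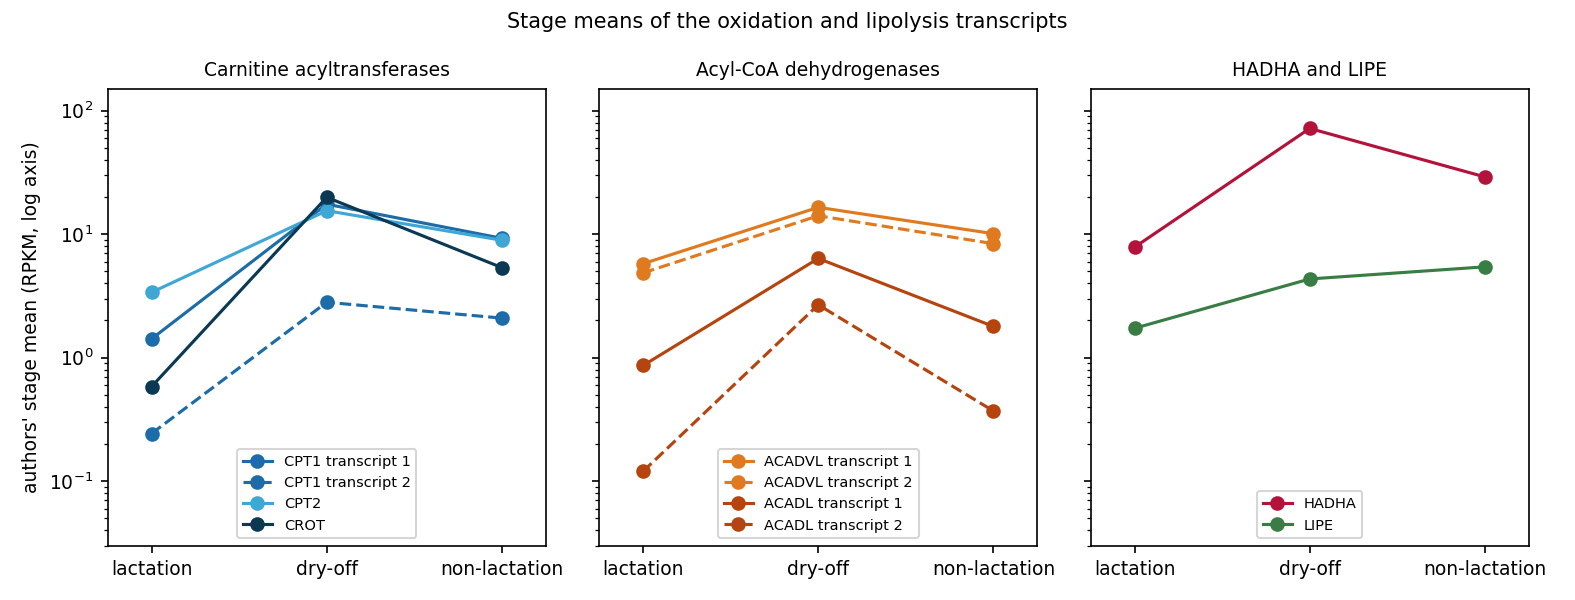
Authors' stage means in RPKM on a log axis for the 10 transcripts, in panels for carnitine acyltransferases, acyl-CoA dehydrogenases, and HADHA with LIPE; each line is 1 transcript and dashed lines are second transcripts of the same description. All 10 means are higher in dry-off than in lactation, 7 of them by an FDR below 0.05, and LIPE alone has its highest mean, 5.44 RPKM, in non-lactation.

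The carnitine acyltransferases stood in a different order in lactation and in dry-off. CROT, a peroxisomal enzyme that puts medium-chain products on carnitine, had authors' means of 0.583, 19.9 and 5.36 RPKM across lactation, dry-off and non-lactation. It ranked 8th of the 10 transcripts in lactation and 2nd in dry-off. CROT rose in dry-off with an FDR of 0.0164 by the authors' deposited table, and its ratio was exceeded by 333 of the 9131 transcripts. After rescaling it was still 11.1-fold higher in dry-off, but its ratios rest on a lactation mean below 1 RPKM.

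CPT1 catalyses the regulated entry step of mitochondrial oxidation, which malonyl-CoA inhibits. The first CPT1 transcript had authors' means of 1.42, 17.5 and 9.26 RPKM across lactation, dry-off and non-lactation. It rose 12.3-fold in dry-off (FDR 0.0315 by the authors' deposited table), or 4.0-fold after rescaling. The second CPT1 transcript, from another component, had authors' means of 0.243, 2.81 and 2.09 RPKM in lactation, dry-off and non-lactation. It rose 11.6-fold in dry-off (FDR 0.0284 by the authors' deposited table), from a lactation mean below 1 RPKM. As deposited, both transcripts were lowest in lactation and highest in dry-off. After rescaling, the second was 3.77-fold above lactation in dry-off and 4.62-fold in non-lactation, so its highest stage depends on the reference. CPT1 genes are paralogs, so reads shared between them cannot be assigned with certainty.

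CPT2 had smaller ratios to lactation than CPT1. Its authors' means were 3.38, 15.5 and 8.93 RPKM across lactation, dry-off and non-lactation. CPT2 rose 4.58-fold in dry-off (FDR 0.0152 by the authors' deposited table), close to the 4.32-fold of the median transcript and 1.49-fold after rescaling. In lactation the CPT2 mean was 2.37 times that of the first CPT1 transcript and 5.79 times that of CROT. In dry-off the CPT2 mean was 0.883 times and 0.776 times theirs. These orders have no error, since no spread of the means was given.

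HADHA carries the hydratase and long-chain 3-hydroxyacyl-CoA dehydrogenase steps of the trifunctional protein. It was the most abundant of the 10 transcripts in each stage, with authors' means of 7.85, 71.9 and 29.1 RPKM across lactation, dry-off and non-lactation. HADHA rose 9.15-fold in dry-off, with a p of 8.13e-06 and an FDR of 0.00296 by the authors' deposited table, and 2.97-fold after rescaling. It was the only member below an FDR of 0.01, which 16.4% of tested transcripts reached as higher in dry-off by the authors' deposited table. HADHA made up 29.3%, 41.9% and 36.0% of the summed means of the 10 transcripts across lactation, dry-off and non-lactation. The beta subunit, HADHB, is the neighbouring coding gene in the RefSeq gene table. No transcript could be tied to HADHB, but 1 described only as acetyl-CoA acyltransferase, the activity of that subunit and of other thiolases, rose from 6.31 to 31.6 RPKM (FDR 0.0393 by the authors' deposited table).

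The acyl-CoA dehydrogenases for very long and for long chains had different stage means and ratios, a difference that was not tested. ACADVL was represented by 2 transcripts of 1 component, which can share reads. Its first transcript had authors' means of 5.77, 16.5 and 10.1 RPKM across lactation, dry-off and non-lactation, and the second 4.86, 14.1 and 8.38 RPKM. Neither passed in dry-off (FDR 0.0590 and 0.0552 by the authors' deposited table). Their ratios of 2.86 and 2.90 lay below the median transcript of the table, and after rescaling they were 0.929 and 0.941. Its first transcript ranked 2nd of the 10 in lactation.

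ACADL was scarcer and had larger ratios, from lactation means below 1 RPKM in both transcripts. The first ACADL transcript had authors' means of 0.864, 6.36 and 1.79 RPKM across lactation, dry-off and non-lactation. It rose 7.36-fold in dry-off (FDR 0.0189 by the authors' deposited table), or 2.39-fold after rescaling. The second ACADL transcript, of another component, had 0.120, 2.68 and 0.370 RPKM and did not pass in dry-off (FDR 0.114 by the authors' deposited table). The mean of the first ACADVL transcript was 6.68 times that of the first ACADL transcript in lactation, but 2.59 times in dry-off, and returned to 5.65 times in the non-lactation stage. On a log scale the non-lactation means of both ACADL transcripts lay nearer to lactation (2.08-fold and 3.08-fold above it) than to dry-off (3.54-fold and 7.24-fold below it). As deposited, those of all other members lay nearer to dry-off, with both CPT1 transcripts at 0.529 and 0.744 times its means. The median ratios of the whole table were likewise nearer to dry-off, at 2.66-fold above lactation and 0.617 times dry-off.

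LIPE hydrolyses diacylglycerol and cholesteryl esters. Its authors' means were 1.73, 4.34 and 5.44 RPKM across lactation, dry-off and non-lactation. LIPE rose 2.50-fold in dry-off as deposited (FDR 0.0140 by the authors' deposited table), but its ratio lay below that of the median transcript and was 0.814 after rescaling, so the direction depends on the reference. LIPE was the 1 member whose mean was highest in non-lactation, as were 6.82% of all transcripts. Other adipocyte markers could not be set beside it: of 8 markers listed for adipocytes, LIPE was the 1 with values, and transcripts described as perilipin, adiponectin and the adipocyte fatty acid-binding protein were listed by description but not analysed here.

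**Figure D2:**
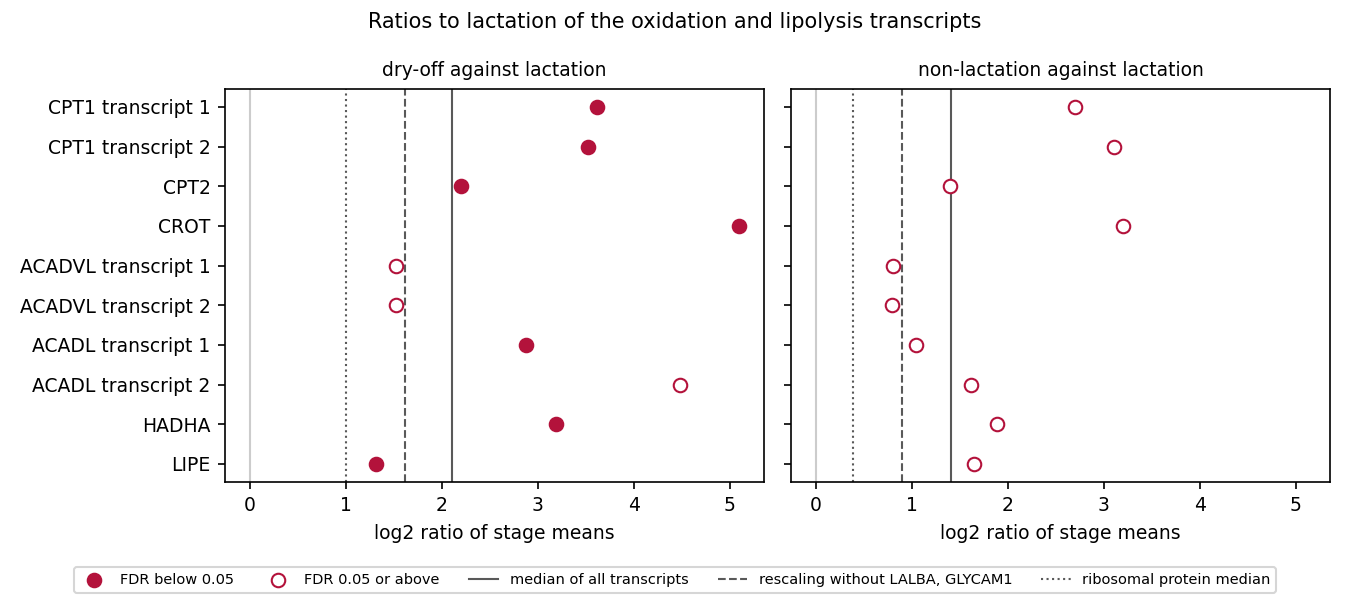
Log2 ratios of stage means for the 10 transcripts, dry-off over lactation at left and non-lactation over lactation at right; filled points have an FDR below 0.05, and vertical lines mark the median of all transcripts (2.11 and 1.41), the ratio used for rescaling (1.62 and 0.90) and the ribosomal protein median (1.00 and 0.39). CROT lies farthest right in both panels, at 5.10 and 3.20, while ACADVL lies left of the rescaling line in both.

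Between non-lactation and lactation no member passed. The authors' means were higher in non-lactation for all 10 transcripts (after rescaling, not for the ACADVL transcripts), and 0 of 10 had an FDR below 0.05 by the authors' deposited table, where 0.0110% of tested transcripts were called higher. At an unadjusted p below 0.05, 3 of 10 were higher by the authors' deposited table, namely CPT2 and both ACADVL transcripts, against 41.5% of all tested transcripts; none was lower, against 0.274%. CROT and the second CPT1 transcript had the largest ratios, 9.19 and 8.62, with FDR of 0.215 and 0.305 by the authors' deposited table. The first CPT1 transcript (FDR 0.231), CPT2 (FDR 0.191), the first ACADVL transcript (FDR 0.185) and the first ACADL transcript (FDR 0.489) did not pass by the authors' deposited table. HADHA was 3.71-fold higher (FDR 0.226) and LIPE 3.14-fold higher (FDR 0.247) by the authors' deposited table. The median of the 10 transcripts was log2 1.64, against 1.41 for the whole table.

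Between non-lactation and dry-off the means of 9 transcripts were lower in non-lactation and that of LIPE was higher; after rescaling, the second CPT1 and first ACADVL transcripts were higher too. By an FDR below 0.05, 0 of 10 passed by the authors' deposited table, as did 0% of all transcripts. At an unadjusted p below 0.05, 6 of 10 were lower in non-lactation (CROT, CPT2, HADHA, the first ACADL transcript and both ACADVL transcripts) by the authors' deposited table, against 38.5% of all transcripts; none was higher, against 2.04%. CROT was 3.72-fold lower in non-lactation (FDR 0.154 by the authors' deposited table). CPT2 (FDR 0.173), HADHA (FDR 0.175), the first ACADL transcript (FDR 0.164), the first ACADVL transcript (FDR 0.215) and the first CPT1 transcript (FDR 0.233) did not pass either by the authors' deposited table. The second ACADL transcript was 7.24-fold lower (FDR 0.255 by the authors' deposited table), with a mean below 1 RPKM in non-lactation. LIPE was 1.25-fold higher (FDR 0.647 by the authors' deposited table), and after rescaling 2.07-fold. Both comparisons with lactation share the lactation samples, and both with dry-off share the dry-off samples, so the 3 sets of ratios are not independent. The non-lactation mean lay between the other means for 9 of the 10 transcripts, as for 92.5% of the table.

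Other genes of the pathway had a lower median ratio at dry-off than the 10 transcripts, a difference that was not tested. Of 62 symbols fixed for other steps of oxidation and lipolysis, 25 had a transcript matched to 1 symbol by description, and each was represented by its most abundant transcript. In dry-off 17 of the 25 rose, 0 fell and 8 did not pass by the authors' deposited table, a share of 68.0% beside the background of 65.9%. Their median ratio was log2 1.27, below the table median of 2.11, and 6 of the 25 lay above that median. Taken likewise as 1 transcript per description, the members had a median of log2 2.88, with 5 of 7 above the table median. A further 14 transcripts with descriptions shared by several genes had a median of log2 1.75. With 1 RPKM added, the median of the 25 genes was log2 1.15, against 1.98 for those 7 and 1.81 for the 10 transcripts. After rescaling the median of the 25 genes was log2 −0.35, so the direction of the list depends on the reference. Genes that rose as deposited but lay below their lactation level after rescaling included SLC22A5, ETFA, ACAA2, ACAD11, PHYH, SCP2 and PCCA. The genes of this list were chosen with earlier results of these data known.

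Peroxisomal genes spanned a wide range. In dry-off 7 of 9 rose, beside a background of 65.9% of all tested transcripts. Pairs of means below are lactation first, then dry-off. AMACR, a racemase for branched-chain acyl-CoA, rose from 1.20 to 8.98 RPKM (FDR 0.0336), and EHHADH, the peroxisomal bifunctional enzyme, from 2.97 to 16.3 RPKM (FDR 0.0457) by the authors' deposited table. HSD17B4, the other bifunctional enzyme, rose from 3.66 to 15.1 RPKM (FDR 0.00610) and HACL1, of alpha-oxidation, from 3.28 to 14.3 RPKM (FDR 0.0362) by the authors' deposited table. HSD17B4 (log2 2.04), PHYH (log2 1.29) and SCP2 (log2 1.02) rose by less than the median transcript (log2 2.11) by the authors' deposited table. The ratio of HACL1 (log2 2.12) was about that of the median transcript, and that of ACAA1 (log2 0.79) lay below it. The transporter ABCD3 had 1.46 and 14.3 RPKM (FDR 0.0690), and the thiolase ACAA1 13.6 and 23.5 RPKM (FDR 0.0588), by the authors' deposited table. Of 3 transcripts described as acyl-CoA oxidase, the first peroxisomal step, all 3 rose, the most abundant from 3.63 to 17.3 RPKM (FDR 0.00590 by the authors' deposited table); the description does not tell the family members apart.

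Beyond the 10 transcripts, 5 genes of the mitochondrial cycle were matched to 1 symbol, and all had ratios below the table median of log2 2.11. In dry-off 2 of the 5 rose, beside a background of 65.9% of all tested transcripts. After rescaling each of the 5 lay below lactation, from log2 −1.88 for ACAD10 to −0.16 for ACAD11. ACAA2, a mitochondrial thiolase, rose from 14 to 32.4 RPKM (FDR 0.0340), and ACAD11, an acyl-CoA dehydrogenase, from 1.37 to 3.78 RPKM (FDR 0.0204) by the authors' deposited table. HSD17B10, a short-chain dehydrogenase, was the most abundant of the 25 genes, with 54.2 and 74.6 RPKM (FDR 0.0584 by the authors' deposited table). ACADSB, for short branched chains, had 4.32 and 7.40 RPKM (FDR 0.0730) by the authors' deposited table. ACAD10 had 4.56 and 3.81 RPKM (FDR 0.293 by the authors' deposited table), the 1 gene of the 25 with a lower mean in dry-off and the 1 named after its values were seen.

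Of the 3 genes of electron transfer from the acyl-CoA dehydrogenases, 2 rose, beside a background of 65.9% of all tested transcripts. ETFA rose from 12.8 to 31.0 RPKM (FDR 0.0230) and ETFDH, which passes the electrons to the respiratory chain, from 3.69 to 11.9 RPKM (FDR 0.0129) by the authors' deposited table. ETFB had 19.5 and 37.2 RPKM (FDR 0.0903) by the authors' deposited table. After rescaling, ETFDH had a ratio of log2 0.06, while ETFA and ETFB lay below lactation (log2 −0.35 and −0.69). CRAT, a carnitine acetyltransferase, rose from 3.93 to 16.2 RPKM (FDR 0.0116), and the carnitine importer SLC22A5 from 2.49 to 4.63 RPKM (FDR 0.0152), by the authors' deposited table. Each of these genes had a ratio below the table median of log2 2.11, with CRAT nearest to it at log2 2.04.

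Propionate is a main fuel of ruminants, and its entry enzymes were also present. PCCB, a subunit of propionyl-CoA carboxylase, rose from 5.43 to 25.3 RPKM (FDR 0.00914) and PCCA, its partner, from 4.65 to 11.1 RPKM (FDR 0.0362) by the authors' deposited table. MMUT had 10.6 and 24.7 RPKM (FDR 0.0832) by the authors' deposited table. After rescaling, PCCB lay above lactation in dry-off (log2 0.60), while PCCA and MMUT lay below it (log2 −0.37 and −0.40). Among lipases, LIPA, the lysosomal acid lipase, had the largest ratio of the 25 genes and rose from 3.12 to 46.1 RPKM (FDR 0.00413 by the authors' deposited table). MGLL, which cleaves monoacylglycerol after LIPE, had 9.44, 19.3 and 21.8 RPKM across lactation, dry-off and non-lactation (FDR 0.0772 for dry-off against lactation by the authors' deposited table). The rescaled ratios of LIPA and MGLL for dry-off against lactation were log2 2.27 and −0.59.

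**Figure D3:**
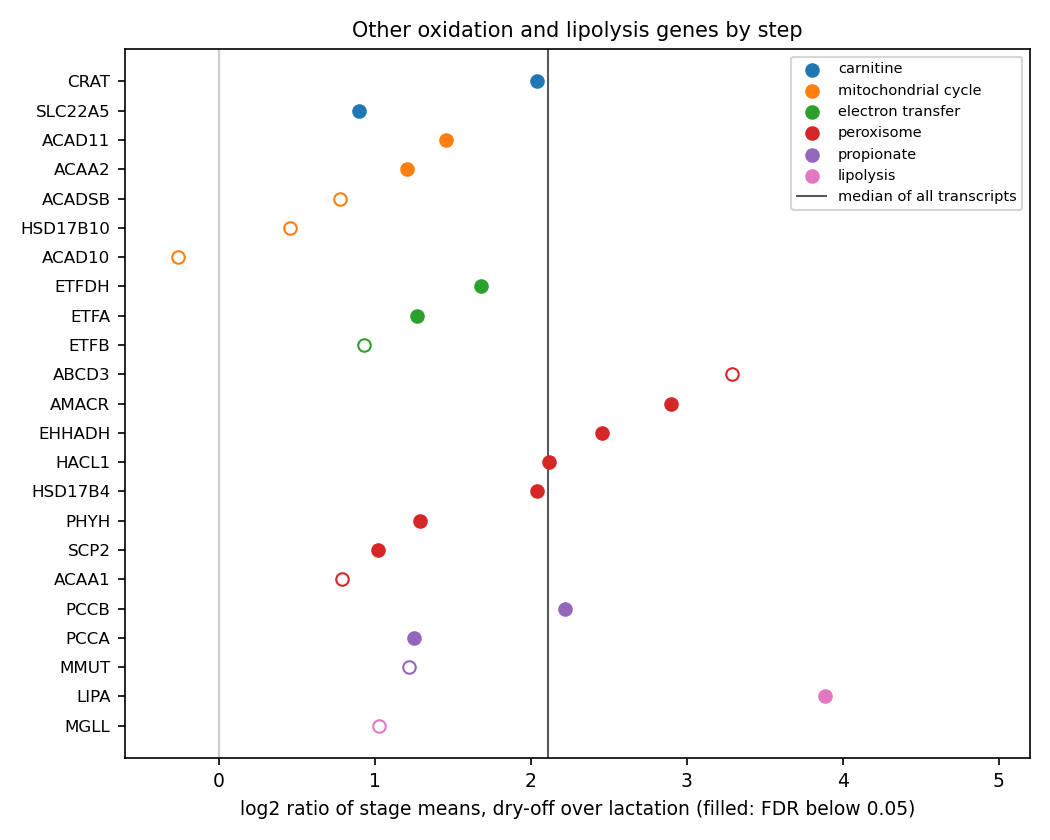
Log2 ratio of the dry-off to the lactation mean for 23 of the 25 other genes of oxidation and lipolysis, coloured by step; filled points have an FDR below 0.05, and the vertical line is the median of all transcripts (2.11). LIPA at 3.89 and ABCD3 at 3.29 lie farthest right, and 17 of the 23 genes lie left of the line.

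Between non-lactation and lactation, 0 of the 25 genes passed by the authors' deposited table. At an unadjusted p below 0.05, 11 of the 25 were higher, near the background of 41.5% of all tested transcripts. Their median ratio was log2 1.11, against 1.41 for all transcripts. Between non-lactation and dry-off, 0 of the 25 passed by the authors' deposited table, with a median of log2 −0.53. At an unadjusted p below 0.05, 9 were lower and 1 higher in non-lactation, against 38.5% and 2.04% of all transcripts.

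Most transcripts described as respiratory chain subunits or citric acid cycle enzymes also had ratios below the table median. Of 57 transcripts of the respiratory chain, 27 (47.4%) rose and 0 fell in dry-off by the authors' deposited table, beside a background of 65.9% called higher. Their median was log2 1.20, and 2 of the 57 lay above the table median. Of 22 transcripts of the citric acid cycle, 19 (86.4%) rose and 0 fell by the authors' deposited table, beside the same background. Their median was log2 1.52, and 2 of the 22 lay above the table median. For 44 transcripts of cytosolic ribosomal proteins the median was log2 1.00. With 1 RPKM added, the medians of these 3 groups ranged from log2 0.99 to 1.40, against 1.81 for the 10 transcripts. The difference between the 10 transcripts and these groups is a description of stage means and was not tested.

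**Figure D4:**
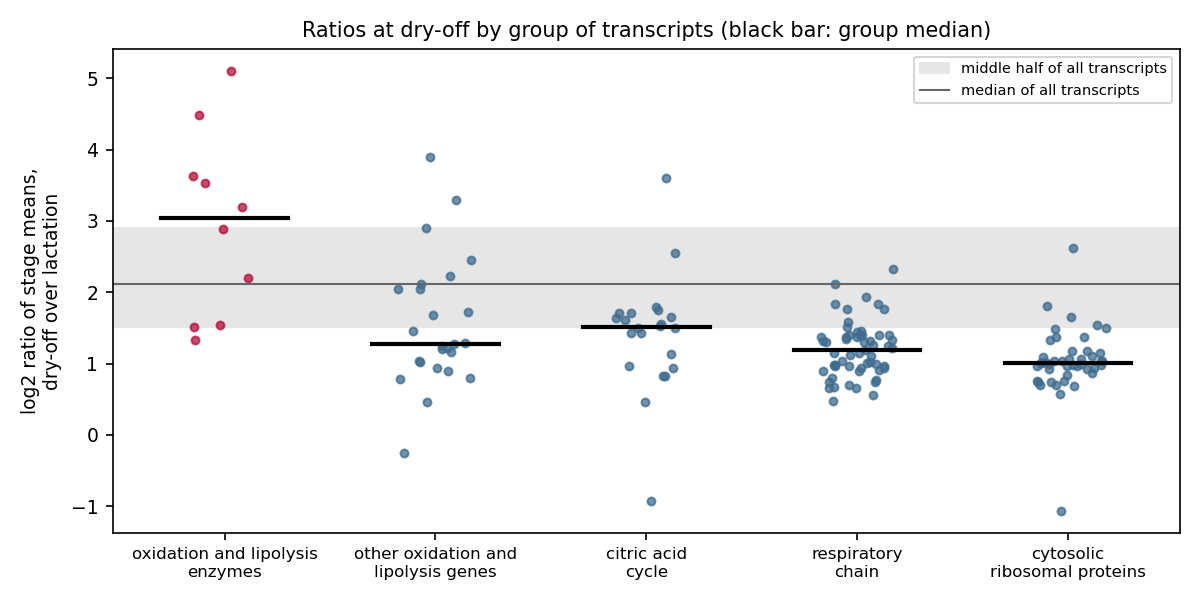
Log2 ratio of the dry-off to the lactation mean for each transcript of 5 groups, with the group median as a black bar, the median of all transcripts (2.11) as a line and the range between their quartiles (1.51 to 2.90) as a grey band. The 10 oxidation and lipolysis transcripts have a median of 3.04, and the other groups have medians from 1.00 to 1.52.

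In the authors' pathway lists, 8 of the 10 transcripts were placed in fatty acid metabolism, CROT in the peroxisome and LIPE in insulin signalling. Fatty acid metabolism held 28 further transcripts with values. Of these, 21 rose and 0 fell in dry-off by the authors' deposited table, beside a background of 65.9% called higher. The median of the 28 was log2 1.75, below the table median of 2.11, and 8 of the 28 lay above that table median. Both CPT1 transcripts, CPT2 and both ACADL transcripts were also listed under PPAR signalling, which held 50 further transcripts. Of these, 28 (56.0%) rose in dry-off, below the background of 65.9%, and 4 fell by the authors' deposited table. The authors' expression patterns put 7 of the 10 transcripts in the pattern numbered 14, which held 5258 transcripts. Both CPT1 transcripts were in pattern 11 and LIPE was in pattern 15, a group of 103 transcripts with a median ratio of log2 0.52 between non-lactation and dry-off.

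LIPE also differed in the authors' network table, which gives the number of other transcripts correlated with each transcript by a threshold that the labels and headers do not state. LIPE was listed with 691 correlated transcripts, and 96.3% of the table had more. The first CPT1 transcript had 7992, CPT2 7943 and HADHA 7312, around a table median of 7544. The second ACADL transcript had 4433 and the first 5576.

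By their means over the 3 stages, the transcripts of most similar shape came from unrelated descriptions. Likeness was the distance between log2 (mean RPKM + 1) profiles, each centred on its own mean, over 5250 described transcripts of at least 1 RPKM in each stage. The nearest to HADHA was a transcript described as MHC class II (distance 0.013), with means of 1.23, 17.3 and 6.64 RPKM in lactation, dry-off and non-lactation. The nearest to ACADVL was toll-like receptor 4 (0.0031) and to CROT intercellular adhesion molecule 1 (0.030). A BTB/POZ domain protein was nearest to LIPE (0.020) and disabled homolog 2 to CPT1 (0.039). A purine synthesis enzyme was nearest to CPT2 (0.0049) and a SCAN domain zinc finger protein to ACADL (0.025). Each likeness rests on 3 stage means alone, and the 1 RPKM added shrinks the ratios of low transcripts. The HADHA means, for example, were higher, at 7.85, 71.9 and 29.1 RPKM. The non-lactation mean lay between the other means for 92.5% of the table. A close match among 5250 candidates therefore says little about shared function.

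Markers of immune, stromal, endothelial and luminal epithelial cells had higher summed means in dry-off than in lactation, as the members did. So did most of the table: 91.8% of all transcripts were highest in dry-off. By the authors' deposited table, 4 of 5 macrophage, 2 of 4 T cell and 2 of 4 endothelial markers with values rose. The same held for 2 of 3 fibroblast and 2 of 3 luminal markers, beside a background of 65.9%. The 3 milk secreting markers with values fell by the authors' deposited table, beside 0.690% of all tested transcripts called lower. In bulk tissue, fewer cells of a type and less RNA per cell cannot be told apart. The summed means of 5 of 6 macrophage markers were 48.4, 471 and 181 RPKM across lactation, dry-off and non-lactation, and those of 4 of 4 T cell markers 13.5, 220 and 79.4 RPKM. For 3 of 5 fibroblast markers the sums were 52.6, 708 and 501 RPKM, and for 4 of 5 endothelial markers 28.1, 210 and 134 RPKM. Luminal epithelial markers, 3 of 7 with values, summed to 48.3, 150 and 108 RPKM, and milk secreting markers, 3 of 6, to 72254, 1175 and 36915 RPKM. The milk secreting sums were mostly LALBA and GLYCAM1, while XDH alone of the 3 was highest in non-lactation (77.7, 17.8 and 110 RPKM). The fibroblast sums were mostly DCN (43.5, 614 and 424 RPKM), while LUM had 8.17, 58.4 and 62.5 RPKM. The 1 skeletal muscle marker of 7 with values, TNNT3, had 0.439, 7.28 and 1.81 RPKM (FDR 0.143 for dry-off against lactation by the authors' deposited table). None of the markers with values was listed at 0 in any stage, and their part in the results above was not tested.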

How the data were processed

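Mammary RNA of 9 samples, 3 per stage by the titles in the labels, was selected for poly(A) and sequenced from 1 end, per the labels' protocols. The submitters' processing notes name FastQC; how transcripts were assembled, aligned and counted is not stated there or in the labels. Per the file headers, the authors deposited mean RPKM per stage. They also deposited p-values with their FDR for the 3 pairs of stages, per the file headers, without naming the test. The FDR appears adjusted over more than the deposited rows: its value, rank and p imply up to 51119 tests for dry-off against lactation. A p under 0.05 in at least 1 comparison was found for 93.8% of the 9131 transcripts, and how they were chosen is not given. The authors also deposited counts of transcripts per pathway and counts of correlated transcripts per transcript, per the file headers.

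Ratios were recomputed from the means, since the deposited log2 columns held errors where a mean was 0; infinite ratios were kept in medians. Gene identity rests on exact matches of the authors' descriptions. The design foresaw limma on values per sample if these were present; with stage means, the authors' FDR below 0.05 was used, and the depth of each sample and the precision it gives are unknown. Members and lists were chosen with earlier results of these data known. The rule for named genes gave all members, and the other genes called in any comparison or with at least 10 RPKM in a stage; 2 genes of that list are counted but not reported here by name. The planned medians of log2 ratios have 1 RPKM added to each mean, with 0.1 RPKM as the alternative; ratios with nothing added, which the text gives first, were chosen after seeing the data. The counting was tested on simulated data. Python 3.11.15, numpy 2.4.6, pandas 2.3.3 and matplotlib 3.10.9 were used.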

Additional observations from a re-analysis of the deposited data

How the results depend on the processing

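No paired analysis was possible because the deposited columns hold stage means and no values per sample; for the same reason no replicate could be left out. The 7 calls for dry-off against lactation became 1 (HADHA) at an FDR below 0.01 and 9 at an unadjusted p below 0.05. They stayed 7 with a minimum of 1 RPKM, a minimum of 2-fold, 1 transcript per component, or ribosomal proteins as reference, and 6 of 7 kept their direction relative to the table median or after rescaling, the exception being LIPE. The 0 calls for non-lactation became 3 against lactation and 6 against dry-off at the unadjusted p, and stayed 0 in the other settings. With 1 RPKM added to the means, as planned, the members' median log2 ratios were 1.81 (dry-off against lactation), 1.21 (non-lactation against lactation) and −0.79 (non-lactation against dry-off). They were 2.92, 1.49 and −0.85 with 0.1 RPKM added, and 0.67, 0.46 and −0.11 with both rescaling and 1 RPKM added; a minimum of 1 RPKM moved that for non-lactation against lactation to 1.24. With nothing added, a setting chosen after seeing the data, they were 3.04, 1.64 and −0.86, and 1.42, 0.74 and −0.13 after rescaling. For the 25 other genes the planned medians were 1.15, 0.83 and −0.48, with 1.27, 1.07 and −0.53 for 0.1 RPKM added and 1.27, 1.11 and −0.53 for nothing added. They were −0.30, 0.15 and 0.16 with both rescaling and 1 RPKM added, and −0.35, 0.21 and 0.19 with rescaling and nothing added, so those for dry-off against lactation and non-lactation against dry-off changed sign; rescaling divides the ratios to lactation by 3.08 and 1.86.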
